A study of Mus musculus with 24 samples.

Results

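The Slc25 family encodes the mitochondrial carriers, the proteins that move nucleotides, phosphate, organic acids, amino acids and cofactors across the inner mitochondrial membrane. Members were taken by name, as every protein-coding row of the deposited table whose symbol is Slc25a followed by a number. There were 41 such genes among 14785 genes in the table, of which 13071 were protein coding. The rule uses names and gene types, and no measured value. The 41 genes lie on 19 chromosomes, and the deposited table's coordinates for 35 of them equal those of the GRCm38 annotation. Slc25a2, Slc25a18, Slc25a31, Slc25a41, Slc25a43, Slc25a52 and Slc25a54 were not analysed here.

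RNA was sequenced from kidneys of male C57/BL6 mice that were 8 to 9 weeks old at the start, with no allele or transgene named for any group. There were 6 groups of 4 mice, 24 in all. The controls had sham surgery, UUO2 and UUO7 mice were killed after 1 ureter had been tied for 2 and 7 days, and in the others the tie was undone at 7 days and the mice lived on for 1 (R1W), 2 (R2W) or 4 (R4W) weeks. Unilateral ureter obstruction, UUO, dams the urine of a single kidney and is widely used to produce tubular injury, inflammation and fibrosis. The study held 10 mice in each group, of which these are the sequenced ones, and each sample is a separate mouse. The sham mice are the only controls, so the recovery groups have no sham of their own age. R4W replicate 2 is called a 4-week sample in its title and a 2-week one in its treatment label, and its title was followed.

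A mitochondrial carrier is a small membrane protein of repeated units that alternately opens to the cytosol and to the matrix, and most members exchange one substrate for another. They supply the respiratory chain with ADP and phosphate and carry reducing equivalents by the malate-aspartate shuttle. They also import coenzyme A, NAD and iron for the matrix enzymes. The proximal tubule, which makes up most of the kidney cortex, depends on mitochondrial ATP for solute reabsorption and uses carriers in gluconeogenesis and ammonia production.

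Values are FPKM, fragment counts scaled by transcript length and library depth, a unit inferred from the table, and levels can be compared between genes because they are per length. The implied depth was 24860000 to 35320000 fragments in 20 libraries and unknown in the 4 UUO2 libraries, whose mitochondrial ribosomal RNA Mt-Rnr1 stood at 2343 to 2832 FPKM against 342 to 709 in all other groups. All 10 proximal tubule markers had a row, and they summed to 7286 to 9000 FPKM in sham libraries, to 1731 to 2285 in UUO7 libraries and to 3908 to 5310 in those of R4W. For 6 thick ascending limb and distal tubule markers the sums were 2423 to 2622, 1238 to 1610 and 2055 to 2921 FPKM in those groups. The sum of 8 macrophage markers ran the other way, at 49.7 to 83.7 FPKM in sham mice, 964 to 1155 in UUO7 and 705 to 1390 in R4W. For 6 fibroblast markers the sum was 17.0 to 46.3 FPKM in sham libraries, 436 to 567 in UUO7 libraries and 193 to 298 in those of R4W. Sham replicate 2 carried 202 FPKM of 5 adipose markers and 35.7 of 5 urothelial markers, against at most 48.8 and 2.96 in the other sham libraries. R4W replicates 1 and 3 carried 1044 and 214 of the adipose markers. The urothelial sum was 12.0 to 28.5 FPKM in UUO7, 11.5 to 52.4 in R1W, 22.0 to 67.5 in R2W and 40.4 to 127 in R4W. In these whole-tissue samples, fewer cells of a type and less RNA per cell cannot be told apart, and the part of cell composition in the results below was not tested.

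The family's summed level was lower in every UUO7 library than in every sham library and was higher again in R4W. The 41 members summed to 3241 ± 27.7 FPKM (SD, n = 4) in sham, 2632 ± 301 in UUO2, 2001 ± 57.7 in UUO7, 2388 ± 265 in R1W, 2465 ± 255 in R2W and 2627 ± 142 in R4W. As a share of all FPKM in a library this was 0.418% ± 0.0107 in sham, 0.262% ± 0.00438 in UUO7 and 0.360% ± 0.0175 in R4W, and those 3 groups did not overlap. Without the 5 most abundant members the share was 0.121% ± 0.00651 in sham, 0.0918% ± 0.00397 in UUO7 and 0.118% ± 0.00907 in R4W, and there R4W overlapped sham. Levels were very uneven between members, from 754 FPKM for Slc25a5 to 1.08 for Slc25a24 in sham. In sham, 6 members stood above 100 FPKM, 23 between 10 and 100, and 12 below 10. The adenine nucleotide carriers Slc25a5 and Slc25a4, the phosphate carrier Slc25a3, the glutathione carrier Slc25a39 and the dicarboxylate carrier Slc25a10 made up 71.1% ± 0.881 of the family's FPKM in sham and 64.9% ± 1.12 in UUO7. Slc25a5 led in sham with 23.3% ± 0.373 of the family, and Slc25a3 led in UUO7 with 22.5% ± 0.992, when Slc25a5 was down to 13.3% ± 1.57. In R4W Slc25a5 was again first, at 21.6% ± 1.52 against 19.1% ± 0.613 for Slc25a3.

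**Figure D1:**
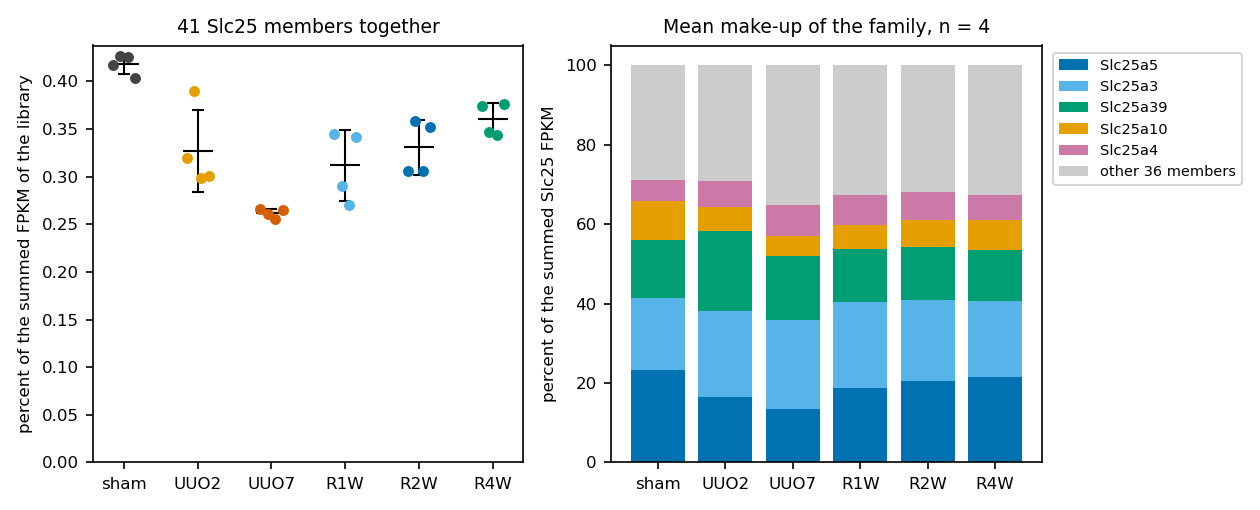
Left, the summed FPKM of 41 Slc25 genes as a percent of all FPKM, for each library (points) with mean and SD, by group; right, the mean percent of the family's FPKM held by 5 genes and by the other 36. The share fell from 0.418% in sham to 0.262% in UUO7 and stood at 0.360% in R4W, and the Slc25a5 portion shrank and widened again.

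After 7 days of obstruction 22 of 41 members were lower than in sham, 7 were higher and 12 were not called, with limma on log2(FPKM + 1) and a Benjamini-Hochberg adjusted p under 0.05. Over all 14785 genes the same test called 77.9%, with 17.8% lower and 60.1% higher, against 53.7% lower and 17.1% higher for the carriers. The members' median log2 fold change was -0.38, and the median of all genes was 0.42. The values were also rescaled by the median ratio of each library to the gene-wise geometric mean. On the rescaled values 35 members were lower and 3 higher, where 73% of all genes were called, 36.5% lower and 36.5% higher, and the members' median was -0.86 with an all-gene median of 0.01. All 22 members lower on the deposited values were lower on the rescaled ones. The authors' deposited results, from the same samples, list 35 members lower and 3 higher in that comparison. Over all 14785 genes they list 5529 lower and 5231 higher.

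The call in UUO7 differed between the scalings for 15 of 41 members. Slc25a24, Slc25a27 and Slc25a53 were higher in UUO7 under both scalings. Slc25a28 and Slc25a37, the mitoferrins, were called higher on deposited values and lower on rescaled ones. Slc25a14 and Slc25a45 were higher on deposited values and not called on rescaled ones, where Slc25a45 turned to -0.04. Every UUO7 sample lay below every sham sample for 25 members on deposited values, against 16.8% of all genes, and for 34 members on rescaled values, against 34.1% of all genes. Fold changes below are log2 values on FPKM + 1, which understates the change of the low members, and are from deposited values unless the rescaled value is named.

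**Figure D2:**
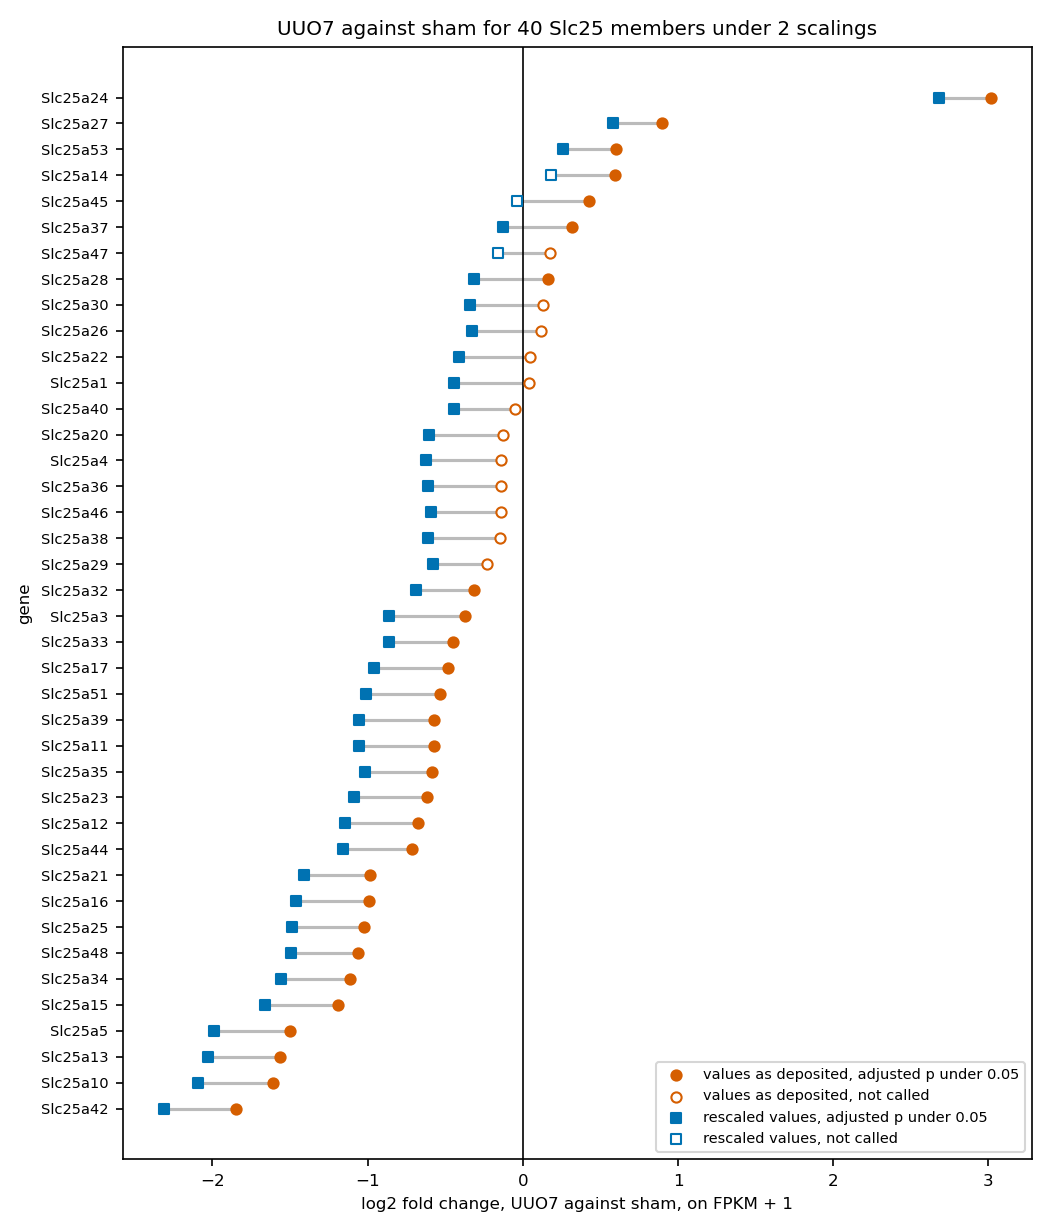
Log2 fold change of each of 40 Slc25 genes in UUO7 against sham, from deposited values (circles) and rescaled values (squares); filled symbols had an adjusted p under 0.05. Rescaling moved every gene to the left, 34 squares are filled on the left, and Slc25a24 stands apart at 3.01 and 2.68.

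**Figure D3:**
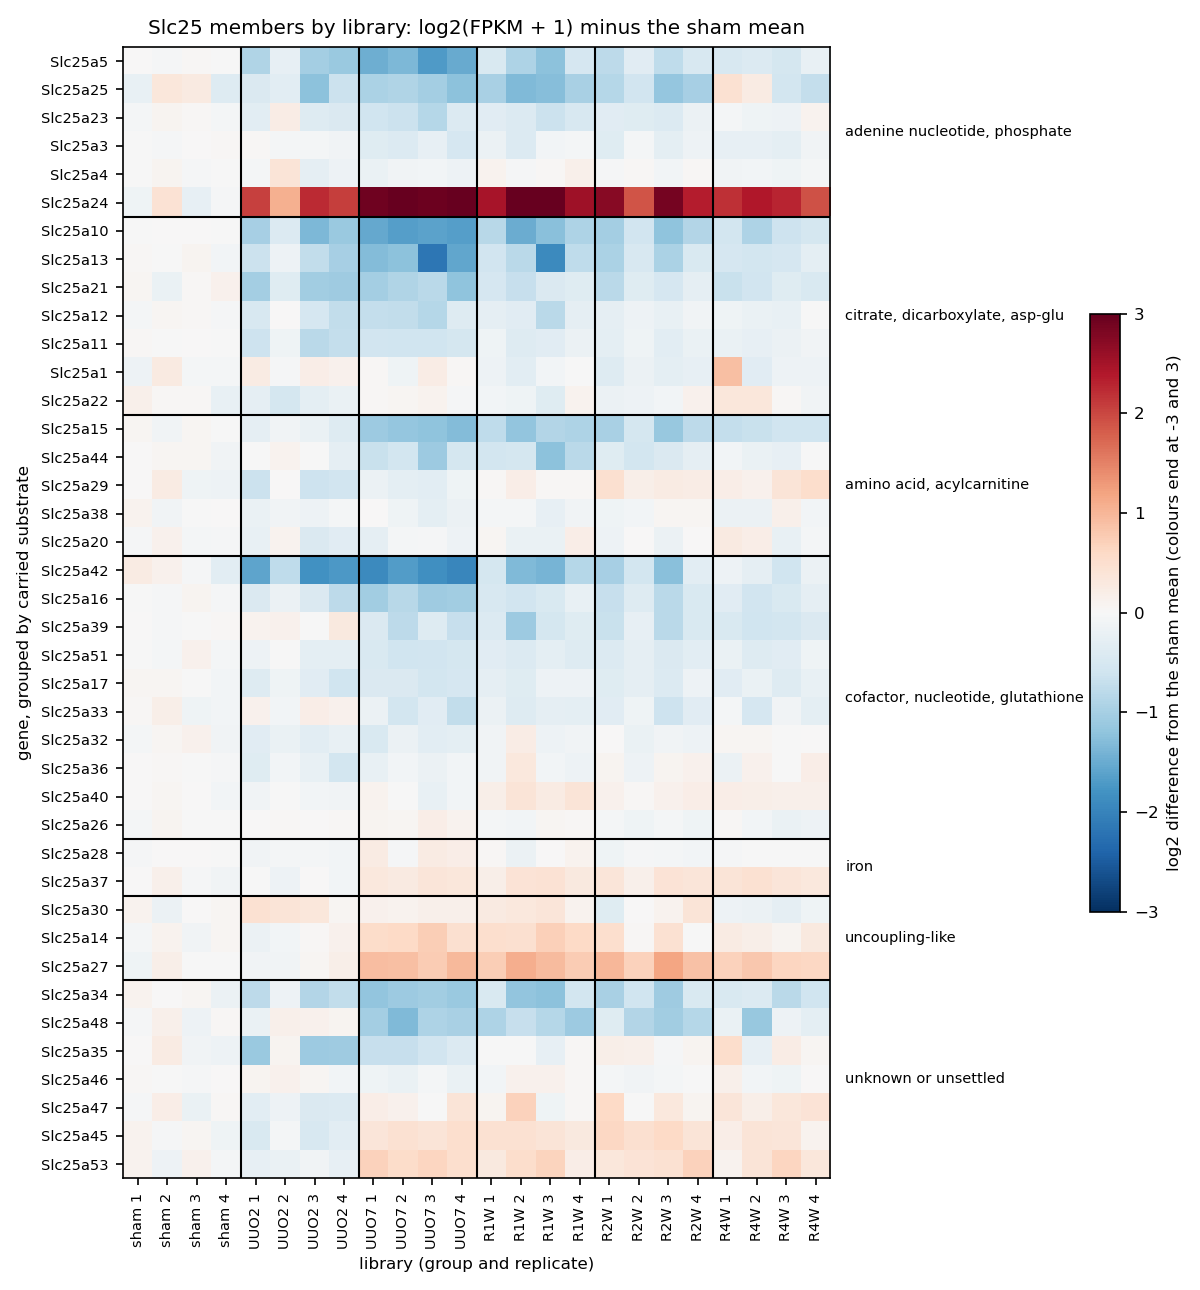
Log2(FPKM + 1) of 40 Slc25 genes (rows, by substrate) in 24 libraries (columns) as a difference from the sham mean, blue lower and red higher, with deposited values and colours ending at 3 on either side. The blue in Slc25a42, Slc25a10, Slc25a13 and Slc25a5 is deepest in UUO7 and lightens through R4W, and Slc25a24 is red in every library after sham.

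Among the 6 adenine nucleotide and phosphate carriers, 4 fell and 1 rose in UUO7, beside 17.8% and 60.1% of all genes. The rescaled values gave 5 lower and 1 higher, beside 36.5% each way. Slc25a5, the adenine nucleotide translocase 2 that exchanges matrix ATP for cytosolic ADP in most tissues, lies at chrX:36795651-36798807 on the plus strand. It measured 761, 738, 771 and 748 FPKM in the sham samples and 270.4, 297, 233 and 266 in UUO7. The R4W samples stood at 538, 563, 519 and 647 FPKM. The UUO7 samples were all far below sham, and the R4W samples lay between those groups without overlapping either. The fall in UUO7 was -1.50 (SE 0.17, adjusted p = 7.16e-08), the rise from UUO7 to R4W was 1.09 (SE 0.17, adjusted p = 4.53e-05), and R4W remained below sham by -0.42 (SE 0.17, adjusted p = 0.0344).

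Slc25a4, adenine nucleotide translocase 1, the form of heart and skeletal muscle, measured 173 ± 6.72 FPKM in sham mice, 157 ± 5.36 in UUO7 and 162 ± 3.32 in R4W. It was not called against sham at any time on deposited values. On rescaled values it was lower in UUO7 at -0.63 (adjusted p = 2.1e-05) and in R4W at -0.47 (adjusted p = 0.000721). In a single-library ratio, which a common scaling leaves nearly unchanged, Slc25a4 amounted to 0.230 ± 0.0129 of Slc25a5 in sham, 0.594 ± 0.0717 in UUO7 and 0.288 ± 0.0220 in R4W.

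Slc25a3 imports the phosphate used for ATP synthesis. It measured 575, 573, 593 and 595 FPKM in sham and 457, 443, 489 and 414 in UUO7. The UUO7 samples were all lower, by -0.38 (SE 0.08, adjusted p = 0.000163). In R4W it was 494, 489, 475 and 547 FPKM, all below sham, with a difference of -0.22 (SE 0.08, adjusted p = 0.0156).

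Of the calcium-regulated ATP-Mg/phosphate carriers, 1 rose and the others fell, and Slc25a24 gave the greatest fold change of the family. Slc25a24 lies at chr3:109123149-109168457 on the plus strand. It measured 0.85, 1.76, 0.71 and 0.98 FPKM in sham and 14.4, 16.2, 14.7 and 16.8 in UUO7. It was already 7.48, 3.25, 8.58 and 7.62 FPKM in UUO2 and was still 8.33, 9.82, 8.94 and 6.69 in R4W. Every sample of those groups was above every sham sample. The log2 change was 1.86 (SE 0.23, adjusted p = 1.69e-06) in UUO2, 3.01 (SE 0.23, adjusted p = 4.8e-10) in UUO7 and 2.20 (SE 0.23, adjusted p = 1.02e-07) in R4W. On rescaled values these were 1.84, 2.68 and 1.98. It then fell from UUO7 to R4W by 0.81 (SE 0.23, adjusted p = 0.00658). The macrophage marker sum averaged 61.0 FPKM in sham, 144 in UUO2, 1063 in UUO7 and 1095 in R4W. For the fibroblast markers the means were 26.3, 92.1, 497 and 254 in the same order. Within UUO2, replicate 3 had the highest Slc25a24 and the lowest sum of both marker sets, at 86.1 and 61.5. Any part of these cells in the Slc25a24 values was not tested.

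Slc25a23 measured 33.5 ± 1.82 FPKM in sham mice, 21.6 ± 2.84 in UUO7 and 32.3 ± 2.62 in R4W, a fall of -0.62 (adjusted p = 5.61e-05) followed by a rise of 0.56 (adjusted p = 0.000557). On rescaled values it was also lower than sham in UUO2 (-0.36) and R4W (-0.42, adjusted p = 0.00527). Slc25a25 varied widely within sham, at 22.9, 34.5, 32.7 and 20.6 FPKM, and was 13.5, 14.0, 12.9 and 11.02 in UUO7, a fall of -1.02 (SE 0.24, adjusted p = 0.000514). Its R4W values fell into 37.6 and 32.5 FPKM in replicates 1 and 2 and 18.0 and 16.0 in replicates 3 and 4, a spread as wide as the distance from UUO7 to sham.

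**Figure D4:**
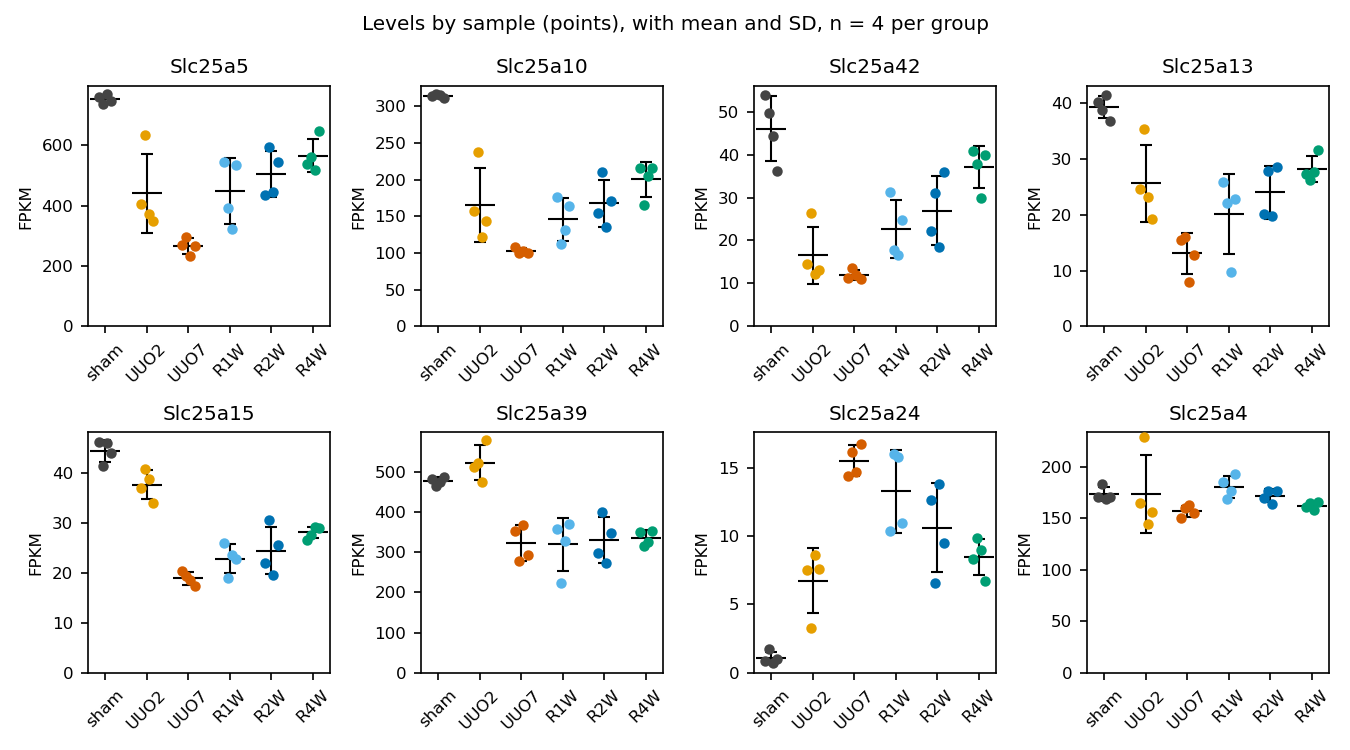
FPKM of 8 Slc25 genes in each sample (points) with mean and SD by group, n = 4, each axis from 0. Slc25a5, Slc25a10, Slc25a42 and Slc25a13 were lowest in UUO7 and higher by R4W, Slc25a39 stayed near its UUO7 level, Slc25a24 rose from about 1.08 to 15.5 and the Slc25a4 means in sham, UUO7 and R4W were 173, 157 and 162.

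The carriers of citrate, dicarboxylates, oxoglutarate, aspartate and glutamate numbered 7. In UUO7, 5 were lower and 0 higher, beside 17.8% and 60.1% of all genes, and on rescaled values all 7 were lower, beside 36.5%. Slc25a10, the dicarboxylate carrier that exchanges malate or succinate for phosphate, lies at chr11:120491840-120499187 on the plus strand and was the fourth most abundant member in sham. It measured 314, 317, 316 and 312 FPKM in sham and 108, 99.8, 103 and 99.6 in UUO7. The R4W samples measured 216, 166, 205 and 216 FPKM. Both later groups lay wholly below sham, and R4W lay wholly above UUO7. The changes were -1.61 (SE 0.16, adjusted p = 2.06e-08) in UUO7 and -0.66 (SE 0.16, adjusted p = 0.00164) in R4W against sham, and 0.95 (SE 0.16, adjusted p = 0.000118) from UUO7 to R4W. In R4W it stood at 63.7% ± 7.62 of its sham mean.

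The malate-aspartate shuttle uses the aspartate-glutamate carriers Slc25a12 (aralar) and Slc25a13 (citrin) and the oxoglutarate-malate carrier Slc25a11. Slc25a13, at chr6:6041218-6217173 on the minus strand, measured 40.3, 38.9, 41.5 and 36.9 FPKM in sham and 15.4, 16.1, 7.98 and 12.8 in UUO7. It measured 27.3, 26.3, 27.6 and 31.7 FPKM in R4W, between the other groups and overlapping neither. Its change was -1.56 (SE 0.24, adjusted p = 4.34e-06) in UUO7 and 1.10 (SE 0.24, adjusted p = 0.000863) from UUO7 to R4W. Against sham R4W was at -0.47, which was not called on deposited values (adjusted p = 0.0875) and was -0.84 and called on rescaled values (adjusted p = 0.00673). Slc25a12 went from 37.1 ± 1.42 FPKM in sham to 23.1 ± 3.55 in UUO7 and 33.7 ± 2.32 in R4W. Slc25a11 went from 121 ± 1.97 to 80.9 ± 1.95 and 106 ± 4.93. Both were lower in UUO7 (adjusted p = 8.04e-05 and 2.57e-05) and higher in R4W than in UUO7 (adjusted p = 0.00218 and 0.00339). In R4W both were below sham on rescaled values alone, at -0.50 and -0.56.

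Slc25a21, the oxodicarboxylate carrier of lysine and tryptophan breakdown, fell by 0.98 in UUO7 (adjusted p = 1.91e-06) and was 6.73 ± 0.703 FPKM in R4W against 10.1 ± 1.07 in sham, still lower by -0.52 (adjusted p = 0.00295). The glutamate carrier Slc25a22 was 13.2 ± 1.45 FPKM in sham mice, 13.6 ± 0.587 in UUO7 and 14.8 ± 2.50 in R4W, and was called in UUO2 alone of the 5 comparisons with sham on deposited values, at -0.32, and on rescaled values was lower in UUO2 (-0.45), UUO7 (-0.41), R1W (-0.53) and R2W (-0.43) and not called in R4W (-0.20). Slc25a1, the citrate carrier that feeds cytosolic lipid synthesis, was 91.3 ± 11.9 FPKM in sham and 93.7 ± 9.81 in UUO7. In R4W it measured 171 FPKM in replicate 1 and 71.3, 81.2 and 81.6 in the others. Replicate 1 is the library with 1044 FPKM of adipose markers, whose part in that value was not tested. Slc25a1 was called in none of the 5 comparisons with sham on deposited values and was lower in UUO7 on rescaled values at -0.44 (adjusted p = 0.0353), as well as in R1W at -0.58 (adjusted p = 0.00825) and R2W at -0.67 (adjusted p = 0.0034).

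Among the 5 carriers of amino acids, ornithine and acylcarnitine, 2 were lower and 0 higher in UUO7, beside 17.8% and 60.1% of all genes. All 5 were lower on rescaled values, beside 36.5%. Slc25a15, the ornithine carrier that links cytosolic and mitochondrial steps of ornithine use, lies at chr8:22375551-22398597 on the minus strand. It measured 46.2, 41.3, 45.9 and 44.0 FPKM in sham mice, 20.3, 19.3, 18.5 and 17.4 in UUO7 and 26.6, 27.6, 29.1 and 28.9 in R4W. The 3 groups did not overlap. Its change was -1.19 (SE 0.10, adjusted p = 2.3e-09) in UUO7 and -0.64 (SE 0.10, adjusted p = 2.2e-05) in R4W against sham. In UUO2 it measured 37.6 ± 2.93 FPKM, which was not called on deposited values at -0.23 (adjusted p = 0.0660) and was called lower on rescaled values at -0.37 (adjusted p = 0.0271). UUO7 against UUO2 was -0.96 (adjusted p = 1.06e-07), or -1.29 on rescaled values. Slc25a44, a branched-chain amino acid carrier, followed a similar order, with 13.9 ± 0.770 FPKM in sham mice, 13.4 ± 1.55 in UUO2, 8.23 ± 1.58 in UUO7 and 12.6 ± 0.964 in R4W, where it was called lower than sham on rescaled values alone (-0.49, adjusted p = 0.0037). Slc25a20, the acylcarnitine carrier of fatty acid oxidation, measured 37.9 ± 2.45 FPKM in sham mice, 34.6 ± 2.68 in UUO7 and 39.5 ± 6.35 in R4W, and Slc25a38, a glycine carrier, 21.2 ± 1.43, 19.0 ± 1.77 and 20.1 ± 2.39. Neither was called against sham on deposited values, and both were lower on rescaled ones in UUO2 (-0.36 and -0.26), UUO7 (-0.60 and -0.61) and R4W (-0.32 and -0.44). The basic amino acid carrier Slc25a29 was low throughout and was called higher in R4W, at 3.63 ± 0.599 FPKM against 2.73 ± 0.500 in sham (adjusted p = 0.0385), but not on rescaled values (0.03). It was lower in UUO2 by -0.46 (adjusted p = 0.00585; rescaled -0.58), and in UUO7 it was lower on rescaled values alone, by -0.58 (adjusted p = 0.000318).

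The carriers of cofactors, nucleotides, methyl donor and glutathione were the most numerous group, with 11 members. In UUO7, 8 were lower and 0 higher, beside 17.8% and 60.1% of all genes, and on rescaled values all 11 were lower, beside 36.5%. Slc25a42, a coenzyme A carrier at chr8:70184340-70212305 on the minus strand, showed the greatest fall of the family. It measured 53.8, 49.6, 44.3 and 36.2 FPKM in sham and 11.3, 13.6, 12.0 and 11.01 in UUO7. In R4W it had 40.8, 37.9, 29.9 and 39.9 FPKM, which overlapped the sham samples. The change was -1.85 (SE 0.23, adjusted p = 2.38e-07) in UUO7 and 1.55 (SE 0.23, adjusted p = 2.7e-05) from UUO7 to R4W, the greatest rise of any member in that comparison. R4W against sham was -0.30 and not called (adjusted p = 0.249), and -0.67 and called on rescaled values (adjusted p = 0.0244). Slc25a16, long linked to coenzyme A transport, also fell, from 34.5 ± 1.48 FPKM to 16.9 ± 1.41 in UUO7, and stood at 25.8 ± 2.52 in R4W, where it was still lower than sham by -0.41 (adjusted p = 0.00328).

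Slc25a39, which carries glutathione into the matrix, was the third most abundant member in sham and behaved otherwise. It measured 482, 465, 477 and 488 FPKM in sham and 513, 524, 476 and 581 in UUO2. The UUO7 values were 354, 278, 367 and 293 FPKM. In R4W it measured 316 to 353 FPKM, within the UUO7 range. It was not called in UUO2, was lower in UUO7 by -0.57 (SE 0.13, adjusted p = 0.000574) and in R4W by -0.51 (SE 0.13, adjusted p = 0.00243), and R4W against UUO7 was 0.06 and not called (adjusted p = 0.712). Its relative Slc25a40 held 4.13 ± 0.182 FPKM in sham and 3.98 ± 0.453 in UUO7 and was higher in R4W on deposited values, at 4.76 ± 0.102 (adjusted p = 0.0368), where the rescaled difference was -0.14 and not called. On rescaled values it was lower in UUO2 (-0.19) and UUO7 (-0.44).

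Slc25a51, the NAD carrier, fell from 51.2 ± 3.39 FPKM to 35.0 ± 1.58 in UUO7 (-0.53, adjusted p = 5.95e-07) and was 42.5 ± 3.53 in R4W (-0.27 against sham, adjusted p = 0.0024). Slc25a17, the peroxisomal carrier of the family, fell by 0.48 in UUO7 (adjusted p = 1.54e-05). The folate carrier Slc25a32 fell by 0.31 in UUO7 and was 3.57 ± 0.116 FPKM in R4W against 3.50 ± 0.361 in sham, a difference of 0.02 that was not called on deposited values and was -0.27 and called lower on rescaled ones (adjusted p = 0.00244). The pyrimidine nucleotide carrier Slc25a33 fell by 0.45 in UUO7 (adjusted p = 0.00219), and its relative Slc25a36 was not called there on deposited values (-0.14) and was lower on rescaled ones (-0.61). In R4W both were lower than sham on rescaled values alone, at -0.57 and -0.33. Slc25a26, the S-adenosylmethionine carrier, was among the steadiest, with group means between 8.78 and 10.3 FPKM, and was lower on rescaled values in UUO7 by -0.33 (adjusted p = 3.99e-05) and in R4W by -0.44.

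The mitoferrins Slc25a37 and Slc25a28 bring iron to the matrix for haem and iron-sulphur clusters. Slc25a37, the form needed by developing red cells, measured 9.11, 10.2, 8.78 and 8.34 FPKM in sham mice, 11.5, 11.1, 12.0 and 11.7 in UUO7 and 12.1, 12.8, 12.0 and 11.5 in R4W. All samples of both later groups were above all sham samples on deposited values. The change was 0.32 (SE 0.07, adjusted p = 0.000406) in UUO7 and 0.38 (SE 0.07, adjusted p = 0.000118) in R4W, and on rescaled values it was -0.13 (adjusted p = 0.0429) and 0.04 (adjusted p = 0.593). The 5 erythroid markers with a row summed to 313 ± 99.3 FPKM in sham mice, 291 ± 44.5 in UUO7 and 335 ± 68.1 in R4W. Slc25a28 held 38.8 ± 0.711 FPKM in sham mice, 43.7 ± 3.99 in UUO7 and 38.4 ± 0.244 in R4W. It was 0.16 in UUO7 (adjusted p = 0.0188), and -0.31 on rescaled values (adjusted p = 0.00152), where it was also lower in UUO2 (-0.21) and R4W (-0.38).

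The 3 uncoupling-protein-like carriers are named for their sequence likeness to the brown fat uncoupling protein. In UUO7, 2 were higher and 0 lower, beside 60.1% and 17.8% of all genes. On rescaled values 1 was higher and 1 lower, beside 36.5% each way, and the lower one was Slc25a30 (-0.34, adjusted p = 0.0223). Slc25a27 measured 1.07, 1.56, 1.26 and 1.24 FPKM in sham mice, 3.35, 3.27, 2.89 and 3.46 in UUO7 and 2.65, 2.99, 2.57 and 2.50 in R4W. It was higher in UUO7 by 0.90 (SE 0.11, adjusted p = 1.34e-07) and in R4W by 0.69 (SE 0.11, adjusted p = 1.14e-05), also on rescaled values, by 0.58 and 0.46. UUO2 was at 1.28 ± 0.232 FPKM, beside 1.28 ± 0.204 in sham. Slc25a14 measured 3.99, 4.65, 3.83 and 4.48 FPKM in sham and 6.67, 6.91, 7.72 and 6.27 in UUO7, a rise of 0.59 (SE 0.11, adjusted p = 4.52e-05) that was 0.18 and not called on rescaled values (adjusted p = 0.1). It fell from UUO7 to R4W by 0.39 (adjusted p = 0.00614), and by 0.29 on rescaled values (adjusted p = 0.02). Slc25a30 was 31.1, 25.5, 28.7 and 29.9 FPKM in sham and 40.1, 37.7, 36.7 and 30.1 in UUO2, where replicate 4 fell within the sham range. Its rise of 0.31 in UUO2 (SE 0.11, adjusted p = 0.026) was not called on rescaled values (0.18, adjusted p = 0.249) or without sham replicate 2 (adjusted p = 0.0848), UUO2 replicate 1 (0.0885), UUO2 replicate 2 (0.0543) or UUO2 replicate 3 (0.0555).

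Among 7 carriers of less settled substrate, 3 were lower and 2 higher in UUO7, beside 17.8% and 60.1% of all genes. With rescaled values 4 were lower and 1 higher, beside 36.5% each way. Slc25a34 fell from 14.3 ± 1.32 FPKM to 6.02 ± 0.286 (-1.12, adjusted p = 6.03e-06) and Slc25a48 from 11.7 ± 1.13 to 5.13 ± 0.710 (-1.06, adjusted p = 1.19e-05). Both were still lower in R4W, at 9.34 ± 1.19 and 8.65 ± 2.61 FPKM. Slc25a35 fell by 0.59 in UUO7 and by 0.80 in UUO2, where 3 samples measured 3.47 to 3.65 FPKM and replicate 2 measured 9.26, inside the sham range. Slc25a45 measured 18.1, 16.4, 17.5 and 15.4 FPKM in sham, 12.0, 16.0, 11.7 and 13.4 in UUO2 and 22.0, 23.5, 22.1 and 24.5 in UUO7. On deposited values it was lower in UUO2 by -0.33 (SE 0.09, adjusted p = 0.00358), higher in UUO7 by 0.43 (SE 0.09, adjusted p = 0.000143) and higher in R4W by 0.27 (SE 0.09, adjusted p = 0.0106), and on rescaled values the last 2 were -0.04 and -0.09 and not called. UUO7 against UUO2 was positive under both, at 0.76 (adjusted p = 2.42e-07) and 0.43. Slc25a53 rose from 1.79 ± 0.264 FPKM to 3.22 ± 0.252 in UUO7 (0.60, adjusted p = 5.74e-05), at 0.26 on rescaled values (adjusted p = 0.0499). In UUO2 it was -0.20 and not called, or -0.30 and called lower on rescaled values (adjusted p = 0.036). Slc25a46, a protein of the outer membrane that acts in mitochondrial shape, had group means of 10.4 to 12.1 FPKM and was not called against sham at any time on deposited values. On rescaled values it was lower in UUO7 by -0.59 (adjusted p = 2.11e-07), in R1W by -0.36, in R2W by -0.42 and in R4W by -0.36 (adjusted p = 0.000195). UUO7 was also below UUO2, at -0.19 on deposited values (adjusted p = 0.0149) and -0.51 on rescaled ones.

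At 2 days more members were lower than higher. In UUO2 against sham 19 members were lower and 2 higher, where the test called 49.2% of all genes, 17% lower and 32.3% higher. Rescaled values gave 28 lower and 1 higher, where 50.8% of all genes were called, 25.5% lower and 25.3% higher. Slc25a42 fell furthest, by 1.47 (SE 0.23, adjusted p = 2e-05), with 14.5, 26.4, 12.3 and 13.1 FPKM, and Slc25a10 fell by 0.97 (SE 0.16, adjusted p = 6.09e-05), with 158, 237, 122 and 144. Replicate 2 was highest in both genes and in Slc25a5, at 635 FPKM against 350 to 405 in the other 3, and it also had the most proximal tubule marker signal, 4174 FPKM against 2811 to 3305. UUO7 against UUO2 gave 14 lower and 9 higher, where 66.7% of all genes were called, 14.7% lower and 52% higher. Rescaled values gave 27 lower and 5 higher, where 62% were called, 31.9% lower and 30% higher. The members that fell most in that interval were Slc25a48 (-1.10), Slc25a15 (-0.96) and Slc25a13 (-0.93).

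After reversal, few members differed from UUO7 at 1 week and more did at 4 weeks. In R1W against UUO7, 9 members were higher and 0 lower, where 14.5% of all genes were called, 6.47% higher and 8.04% lower; without adjustment, 19 members had p under 0.05. The 9 were Slc25a42 (0.82), Slc25a5 (0.72), Slc25a16 (0.55), Slc25a21 (0.49), Slc25a40 (0.35), Slc25a11 (0.31), Slc25a32 (0.28), Slc25a17 (0.25) and Slc25a46 (0.20). That count rests on few mice: it was 3 without UUO7 replicate 4, 4 without UUO7 replicate 1 or R1W replicate 4, and 5 without UUO7 replicate 3 or R1W replicate 1. The all-gene count fell too, to 1331, 1345, 1116, 1281 and 1372 of 14785 genes in that order, from 2145 with all mice. On rescaled values 7 were higher and 0 lower, where 14.4% of all genes were called, 7.26% higher and 7.14% lower. By R4W against UUO7, 20 members were higher and 5 lower, where 48.4% of all genes were called, 17.6% higher and 30.8% lower. Rescaled values gave 25 higher and 2 lower, where 48.3% were called, 25.1% higher and 23.2% lower.

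Against sham, 20 members were lower and 8 higher in R1W, where 74.1% of all genes were called, 14.7% lower and 59.4% higher. Rescaled values gave 31 lower and 2 higher, where 68.3% were called, 34.6% lower and 33.7% higher. In R2W, 18 were lower and 5 higher, where 69% of all genes were called, 12.9% lower and 56.1% higher. Rescaled values gave 32 lower and 2 higher, where 63.6% were called, 32.5% lower and 31.1% higher. In R4W, 11 were lower and 7 higher, where 66.4% of all genes were called, 11.6% lower and 54.8% higher. Rescaled values gave 28 lower and 2 higher, where 60.1% were called, 31.1% lower and 28.9% higher. The 11 lower on deposited values were Slc25a3, Slc25a5, Slc25a10, Slc25a15, Slc25a16, Slc25a17, Slc25a21, Slc25a34, Slc25a39, Slc25a48 and Slc25a51. The members' median log2 fold change against sham was -0.38 in UUO7, -0.14 in R1W, -0.17 in R2W and -0.10 in R4W on deposited values, beside all-gene medians of 0.42, 0.37, 0.32 and 0.30. On rescaled values it was -0.86, -0.58, -0.55 and -0.47.

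Between R1W and R4W, 6 members rose and 2 fell, where 19.1% of all genes were called, 5.06% higher and 14.1% lower. Slc25a25 (1.00), Slc25a42 (0.72), Slc25a44 (0.65), Slc25a10 (0.47), Slc25a23 (0.41) and Slc25a15 (0.30) rose, and Slc25a30 (-0.44) and Slc25a14 (-0.37) fell. On rescaled values 5 rose and 1 fell, where 17.3% of all genes were called, 8.67% higher and 8.6% lower. On deposited values the member count was 2 without R1W replicate 3, and 5 without R1W replicate 2 or R4W replicate 1, 3 or 4. In that order these fits called 728, 2839, 1609, 2004 and 1603 of 14785 genes, against 2830 with all mice. In a fit on these 8 samples alone, 161 of all genes were called and none of the 6 rises, and Slc25a30 was the 1 member called (-0.44, adjusted p = 0.0399). Slc25a5 measured 546, 394, 321 and 534 FPKM in R1W, and the proximal tubule marker sums of those samples were 4321, 2563, 3272 and 4003 FPKM, so the 2 mice with the lower sums had the 2 lower Slc25a5 values, in the opposite order. In R4W the sums were 4283, 3908, 4802 and 5310 FPKM beside Slc25a5 at 538, 563, 519 and 647. There replicate 4 was highest in both, but replicate 2 had the lowest sum and replicate 3 the lowest Slc25a5.

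Ratios between related carriers within a library do not depend on a common scaling factor, apart from the pseudocount of 1. Of 6 pairs listed, 5 could be computed, which gave 10 two-sided exact permutation tests of 4 mice against 4, with a smallest possible p of 0.0286. The log2 ratio of Slc25a4 to Slc25a5 was higher by 1.36 in UUO7 and by 0.32 in R4W than in sham (exact p = 0.0286 and adjusted p = 0.0408 for both). Slc25a12 to Slc25a13 was higher by 0.89 in UUO7 and 0.33 in R4W (exact p = 0.0286, adjusted p = 0.0408 for both), and the linear ratio went from 0.943 ± 0.0503 in sham to 1.88 ± 0.573 and 1.19 ± 0.0401. For both pairs every UUO7 and R4W sample lay above the sham range.

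Slc25a39 to Slc25a40 was lower by -0.52 in UUO7 and -0.67 in R4W (exact p = 0.0286, adjusted p = 0.0408 for both). Their linear ratio was 116 ± 7.41 in sham, 82.3 ± 17.2 in UUO7 and 70.6 ± 4.12 in R4W. Slc25a37 to Slc25a28 was higher by 0.39 in R4W (exact p = 0.0286, adjusted p = 0.0408), and its difference in UUO7 was 0.15 (exact p = 0.114, adjusted p = 0.143). For Slc25a33 to Slc25a36 the differences were -0.30 in UUO7 (exact p = 0.143, adjusted p = 0.159) and -0.27 in R4W (exact p = 0.257, adjusted p = 0.257), which did not pass. With sham replicate 1, 2, 3 or 4 left out, none of the 7 differences passed: their exact p was 0.0286 or 0.0571, with 0.0286 the smallest that 35 relabelings can give, and their adjusted p was 0.0571 to 0.0816. Every difference kept its sign.

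**Figure D5:**
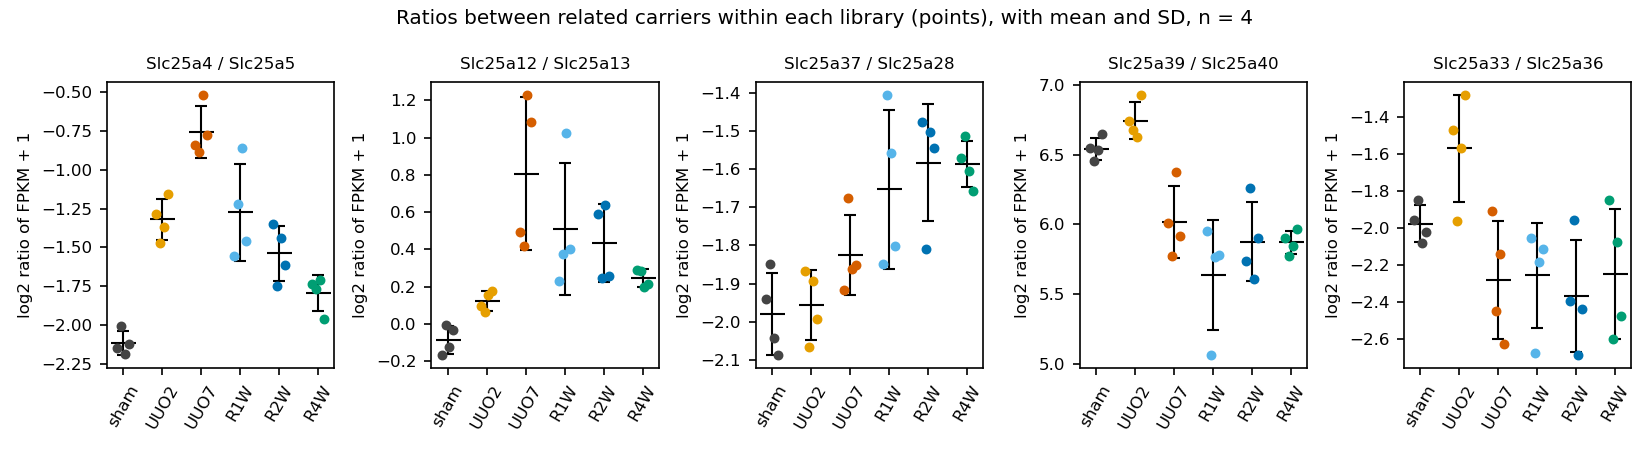
Log2 ratio of FPKM + 1 between related carriers within each library (points), with mean and SD by group, n = 4; the vertical axes differ and do not start at 0. Slc25a4 to Slc25a5 climbs from -2.12 in sham to -0.76 in UUO7 and is back at -1.79 in R4W, and Slc25a39 to Slc25a40 drops after UUO2 and stays low.

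Other mitochondrial genes were counted in the same way, beside the 17.8% of all genes lower and 60.1% higher in UUO7, or 36.5% each way on rescaled values. Of 23 nuclear subunits of the respiratory chain, 20 were lower and 0 higher in UUO7, with a median of -0.78, and on rescaled values 23 were lower. In R4W 22 of the 23 were lower than sham, with a median of -0.38, beside 11 of 41 carriers with a median of -0.10 and 11.6% of all genes lower. On rescaled values these were 23 of 23 with a median of -0.76 and 28 of 41 with a median of -0.47, where 31.1% of all genes were lower. The difference between the lists was not tested. Of 30 enzymes that use the carried substrates, 22 were lower and 5 higher in UUO7 (rescaled 25 and 3). Among them Ass1, which makes argininosuccinate from citrulline, went from 1434 ± 76.0 FPKM to 224 ± 30.3. The 12 genes of the machinery that imports carrier proteins had 5 higher and 4 lower in UUO7 and a median of 0.06, or 1 higher and 7 lower on rescaled values. Of 13 related transporters outside the Slc25 names, 6 were lower and 5 higher (rescaled 8 and 3). The pyruvate carrier subunit Mpc1 fell by 1.27 (adjusted p = 3.89e-09), and the uncoupling protein Ucp2 rose from 114 ± 35.7 to 225 ± 34.5 FPKM (adjusted p = 8.73e-05), also on rescaled values, by 0.52. Of 9 regulators of nuclear genes for mitochondria, 8 were lower and 1, Nrf1, was higher by 0.63 (adjusted p = 1.54e-07), with the same counts on rescaled values, where Nrf1 was at 0.20. Hnf4a, a proximal tubule transcription factor, fell by 1.52 (adjusted p = 4.28e-08).

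The Nrf1 protein (nuclear respiratory factor 1) binds a palindromic GC-rich word in promoters of mitochondrial genes, and the RefSeq promoter windows (GRCm38.p6, 250 bases before to 50 after each start, 300 in all) were searched for it. A window was found for 32 of the 41 members. That word, on either strand, was present in 1 of these 32, Slc25a3, a share of 3.13% against 5.19% of all 27025 genes with a window and 10.9% of those in the expression table. The oestrogen-related receptor word TNAAGGTCA, searched on both strands, was in 0 of 32 members, 1.43% of all genes and 0.967% of those in the table. These are letter matches in a short window only. The Slc25a3 window at chr10:91123918-91124217, minus strand, is shown 5′ to 3′ because it is the single member with the Nrf1 word, whose letters are in capitals:
Slc25a3: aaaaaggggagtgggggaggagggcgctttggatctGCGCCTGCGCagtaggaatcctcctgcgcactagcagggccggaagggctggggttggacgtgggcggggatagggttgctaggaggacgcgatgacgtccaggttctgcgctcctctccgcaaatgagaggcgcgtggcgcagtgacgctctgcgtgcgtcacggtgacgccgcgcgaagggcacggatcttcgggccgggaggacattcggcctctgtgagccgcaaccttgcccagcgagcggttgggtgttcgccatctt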

How the data were processed

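Polyadenylated RNA of 24 mouse kidneys was sequenced in pairs of 100 bases. Per the submitters' processing notes, FastQC, RSEM, Bowtie2, DESeq2 and the build mm10 were used, with no roles or versions given. The authors deposited 1 table of 14785 genes, all with a mean of at least 1. Its unit is stated neither per the labels nor per the file headers, and FPKM was inferred here because value times transcript length sums to 884409 to 952784 in each library. The same deposited table holds the authors' log2 fold changes and adjusted p-values.

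One member is counted in every total of 41 and is not reported by itself here. Members and gene lists were chosen with earlier results of these data known. The test was limma 3.58.1 under R 4.3.3 (eBayes with trend), applied to log2(FPKM + 1), with 24 libraries and 6 group terms in 1 model, and Benjamini-Hochberg adjustment over all genes. The mean rescaling factor was 0.814 in sham, 0.894 in UUO2, 1.14 in UUO7, 1.11 in R1W, 1.07 in R2W and 1.06 in R4W. Tested on simulated data with 200 of 14785 genes changed by a log2 value of 1, the fit called 179 of them and 6 unchanged genes. Members given sample by sample were the 3 most abundant in sham and the called members of greatest rise and fall averaging 5 FPKM or more over both groups (4 each way in UUO7 against sham, 2 each way in R4W against sham, R4W against UUO7 and UUO2 against sham, where only 1 member met the rule for a rise in UUO2). Relatives compared as ratios that were not among these are given by group mean or fold change. Other members are named by substrate, and Slc25a1, Slc25a25 and Slc25a27 were given by sample after their values were seen. Of each other list, only genes among its 4 most abundant are named. Depth was read from whole-read steps in low values, assuming a transcript length shortened by 140 to 170 bases. Alternatives were rescaling, a pseudocount of 0.1 or 10, genes of at least 50 FPKM on average, 2-group fits, a fit without UUO2, a minimum fold change, a replicate block, the other placement of R4W replicate 2, and leaving out each replicate. Figures were drawn with matplotlib 3.10.9 in Python 3.11.15.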

Additional observations from a re-analysis of the deposited data

Results flagged for a closer look

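Within each group of 4, the highest or lowest sample of a member was compared with its neighbours by Dixon's criterion at the 95% level. Of 240 checks over 40 members, 18 stood apart, where chance alone gives about 12, or 1 in 20. In UUO2, replicate 2 was the sample apart in 6 members, each time on the sham side: Slc25a21 at 7.54 FPKM (others 4.31 to 4.47), Slc25a23 at 39.2 (24.7 to 26.5), Slc25a29 at 2.74 (1.36 to 1.47), Slc25a34 at 12.6 (7.31 to 8.08), Slc25a35 at 9.26 (3.47 to 3.65) and Slc25a42 at 26.4 (12.3 to 14.5). That library also had the highest proximal tubule marker sum of its group.

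In sham, replicate 2 was apart for Slc25a4 at 183 FPKM (others 168 to 171) and Slc25a20 at 41.5 (36.2 to 36.9), and replicate 3 for Slc25a16 at 36.7 (33.5 to 33.9). In UUO7, replicate 2 was apart for Slc25a16 at 19.0 (15.9 to 16.3) and Slc25a28 at 37.8 (44.8 to 46.1). In R1W, replicate 2 was high for Slc25a29 at 3.25 (2.80 to 2.82), Slc25a32 at 4.25 (3.05 to 3.19) and Slc25a36 at 37.6 (27.0 to 28.6), and replicate 3 was low for Slc25a12 at 20.8 (28.9 to 30.6). In R2W, Slc25a29 was 4.20 in replicate 1 (3.19 to 3.36) and Slc25a36 was 27.1 in replicate 2 (31.9 to 32.8). In R4W, Slc25a1 was 171 in replicate 1 (71.3 to 81.6), the library with the most adipose marker signal.

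Slc25a45 was the only member called in opposite directions at the 2 times of obstruction on deposited values, at -0.33 in UUO2 and 0.43 in UUO7 against sham. The difference between those groups, tested directly with limma, was 0.76 (adjusted p = 2.42e-07). On rescaled values the UUO7 change was -0.04 and not called, and UUO7 against UUO2 was 0.43. There the member called in opposite directions was Slc25a53, at -0.30 in UUO2 (adjusted p = 0.036) and 0.26 in UUO7 (adjusted p = 0.0499), with UUO7 against UUO2 at 0.56 (adjusted p = 0.000295).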

How the results depend on the processing

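Against sham, 21 members were called in UUO2, 29 in UUO7, 28 in R1W, 23 in R2W and 18 in R4W. With a minimum mean of 50 FPKM, which leaves 8 members, the counts were 4, 6, 6, 6 and 5, where 70%, 85.2%, 78.0%, 73.6% and 67.5% of the 2213 genes tested were called. On all members, asking instead for a log2 change of 1 or more either way, they were 2, 9, 5, 1 and 1 of 41, where 8.75%, 27.6%, 20.4%, 16.6% and 14.8% of all genes were called. Rescaled values with that minimum fold change, an alternative chosen after seeing the data, gave 4, 19, 11, 8 and 3, where 9.06%, 24.1%, 18.8%, 15.4% and 13.1% of all genes were called. Rescaling alone gave 30 in R4W, and the counts in the report for the other comparisons. For UUO7 against UUO2 (23), R1W against UUO7 (9), R4W against UUO7 (25) and R4W against R1W (8), the 50 FPKM minimum gave 4, 4, 4 and 1, the fold minimum 2, 0, 3 and 0, and the rescaled fold minimum 5, 0, 4 and 1. The shares of genes called were 68.2%, 35.3%, 71.1% and 39.7% under the first, 16.2%, 1.33%, 6.03% and 0.771% under the second and 14.2%, 1.26%, 5.8% and 0.805% under the third. The zeros came from the fold minimum, without which limma called 9 members in R1W against UUO7 and 8 in R4W against R1W. At an unadjusted p under 0.05 limma gave 19 members in R1W against UUO7 (17 rescaled) and 14 in R4W against R1W. A fit on R1W and R4W alone called 1 member there, a fall, and no rise. Leaving out each replicate gave 17 to 23, 29 to 30, 24 to 27, 20 to 24 and 14 to 18 against sham, then 23 to 26, 3 to 10, 22 to 27 and 2 to 9 in the other 4. Of 14785 genes these fits called 6291 to 7790, 11041 to 11451, 10395 to 10881, 9361 to 10444 and 9044 to 9758 against sham. In the other 4 they called 9253 to 9717, 1116 to 2535, 6015 to 6749 and 728 to 3491.

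Under rescaling Slc25a37 turned to -0.13 in UUO7, and Slc25a45 to -0.036 in UUO7 and -0.091 in R4W. Leaving out each replicate, the log2 ratio differences in UUO7 and R4W ranged over 1.28 to 1.40 and 0.29 to 0.38 for Slc25a4 to Slc25a5, 0.75 to 1.02 and 0.30 to 0.36 for Slc25a12 to Slc25a13, 0.10 to 0.20 and 0.36 to 0.44 for Slc25a37 to Slc25a28, -0.64 to -0.44 and -0.71 to -0.64 for Slc25a39 to Slc25a40, and -0.43 to -0.19 and -0.41 to -0.15 for Slc25a33 to Slc25a36. Without any 1 of the sham mice the adjusted p of the 7 ratio calls was 0.0571 to 0.0816, so none of the 7 passed, with the sign of each unchanged. The exact p was 0.0286, the smallest that 3 mice against 4 can give, or 0.0571. Without UUO7 replicate 1 Slc25a33 to Slc25a36 passed in UUO7 at -0.43 (exact test, adjusted p = 0.0357). Placing R4W replicate 2 in R2W leaves the ratios as they are without it.

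Replicate numbers do not pair the samples: correlations of same-numbered deviations from the group means ran from -0.25 to -0.04 in UUO7 against sham and were not all above 0.1 in any comparison. With the replicate block, the ratio differences were the same 1.36, 0.32, 0.89, 0.33, 0.39, -0.52 and -0.67, and the exact paired test cannot pass, since 4 pairs give a smallest p of 0.125 (adjusted p = 0.156). The depth of the UUO2 libraries is unknown.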
